A study of Drosophila melanogaster with 8 samples.

Results

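The 10 genes described here act in female meiosis of Drosophila melanogaster: 4 build or hold the synaptonemal complex and the sister chromatids (c(3)G, c(2)M, corolla and ord), 5 make the meiotic DNA breaks (mei-W68, mei-P22, narya, nenya and vilya) and 1 directs breaks to crossovers (mei-218). They were chosen by name, as the rows of the gene count tables whose FlyBase symbol is one of these 10. Of the 15682 genes in the tables, 8 carried a member's current identifier. vilya and corolla had no row under theirs (FBgn0283545 and FBgn0267967, both on chromosome X) and are not analysed here. All 8 members with a row were among the 10434 genes that passed the filter on low counts.

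The data set holds RNA sequencing of ovaries from flies 4 to 6 days old, in 4 groups of 2 libraries. The piwi mutant carried the alleles piwi1/piwi2 and no driver named in its label, and its control carried the germline driver nos-GAL4-VP16. The RnpS1 knockdown carried a double-stranded RNA under tj-GAL4, a driver of the somatic cells of the ovary, together with a short hairpin RNA under nos-GAL4-VP16. Its control carried tj-GAL4 and nos-GAL4-VP16 without the RNAs, so 3 of the 4 groups share the germline driver and the controls are separate genotypes. Piwi is the nuclear Argonaute protein that silences transposons, and RnpS1 is an accessory protein of the exon junction complex on spliced RNA. Both comparisons ask how ovarian RNA differs once the protein is lost.

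In the fly ovary, meiosis begins in the germarium, where several cells of each germline cyst start to pair their chromosomes and only the oocyte completes the programme. The synaptonemal complex forms before the breaks and zips the paired chromosomes together along their length. The Spo11 family enzyme Mei-W68 then cuts the DNA, and most breaks are repaired without a crossover. Which cells of the ovary make the transcripts of these genes was not measured here. In bulk RNA, fewer cells of a type and less RNA per cell cannot be told apart.

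Gene counts ranged from 37426999 to 86692865 per library. Transcripts of piwi were at 202 and 193 CPM (gene counts scaled to a common library total) in the mutant libraries, against 316 and 312 CPM in their controls (a log2 change, mutant over control, of −0.83, SE 0.133, adjusted p = 0.0185). RnpS1 was at 8.75 and 3.78 CPM in the knockdown libraries, against 45.0 and 39.6 CPM in theirs (log2 change −2.88, SE 0.366, adjusted p = 0.0207). Transcripts of piwi were lower in the knockdown as well, at 189 and 156 CPM against 414 and 337 CPM (log2 change −1.24, SE 0.134, adjusted p = 0.0149). The 2 comparisons thus share a lower level of piwi RNA. RnpS1 did not pass in the piwi mutant (log2 change 0.07, adjusted p = 0.907). Adjusted p-values come from quasi-likelihood F tests in edgeR, adjusted over all genes tested by the method of Benjamini and Hochberg, and a gene passed when its value was under 0.05. Nothing in the labels ties the libraries of a group to separate animals, so the p-values take in only the spread between these libraries, which may be technical.

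Markers of the germline and oocyte were present in every library, with a summed level of 3352 and 3457 CPM in the piwi mutant, against 4297 and 4549 CPM in its control, and of 4337 and 4009 CPM in the RnpS1 knockdown, against 4280 and 4269 CPM in its control (7 genes). Of these 7 germline genes 3 fell in the piwi mutant, where 5.06% of all genes fell. None of them passed in the knockdown in edgeR (1 at an unadjusted p under 0.05, and 1 in DESeq2). The 14 eggshell genes of late follicle cells summed to 788 and 2083 CPM in the piwi mutant, against 11470 and 8503 CPM in its control. They summed to 4222 and 15090 CPM in the RnpS1 knockdown, against 10130 and 22320 CPM in its control. Eggshell genes fell in 4 of 14 cases in the mutant, and the 8 fat body and haemocyte genes rose in 6 cases there, where 6.37% of all genes rose. Those 8 summed to 589 and 1434 CPM in the mutant, against 87.0 and 60.0 CPM in its control. The 7 muscle genes summed to 840 and 1883 CPM in the mutant, against 272 and 88.3 CPM in its control, and none passed in edgeR (3 at an unadjusted p under 0.05, and 2 in DESeq2). No eggshell, muscle or fat body gene passed in the knockdown with either tool or had an unadjusted p under 0.05 in edgeR. Summed gut genes ran from 0.206 to 89.2 CPM over the libraries with no call in edgeR. The marker calls changed when 1 of the 4 mutant and piwi control libraries was left out, which leaves 1 library in its group. Germline calls were then lost, and fat body calls mostly so. Eggshell calls were lost too, except without mutant replicate 2, where more passed. A call lost in such a fit can reflect the smaller group. The part of these shifts in the results on meiotic genes was not tested.

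Set against exon length not shared with a gene on the same strand (annotation release BDGP6), c(3)G and c(2)M were the most abundant members in every group but the piwi control. c(3)G averaged 42.0 ± 12.2 CPM per kb in the piwi mutant, 33.7 ± 4.65 in its control, 32.1 ± 0.257 in the RnpS1 knockdown and 13.6 ± 1.89 in its control (SD, n = 2 each). nenya, mei-P22 and mei-W68 had group means between 1.41 and 9.40 CPM per kb. In the RnpS1 knockdown ord (2.30) and narya (1.76) were above mei-W68 (1.41). ord stayed between 0.0781 and 2.30 CPM per kb in group means, and mei-218 between 0.0571 and 0.198. narya had the widest span: it averaged 30.8 ± 3.35 CPM per kb in the piwi control, near c(3)G there, and at most 1.76 in the other 3 groups. In the piwi control c(3)G and narya did not differ beyond their spread.

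**Figure D1:**
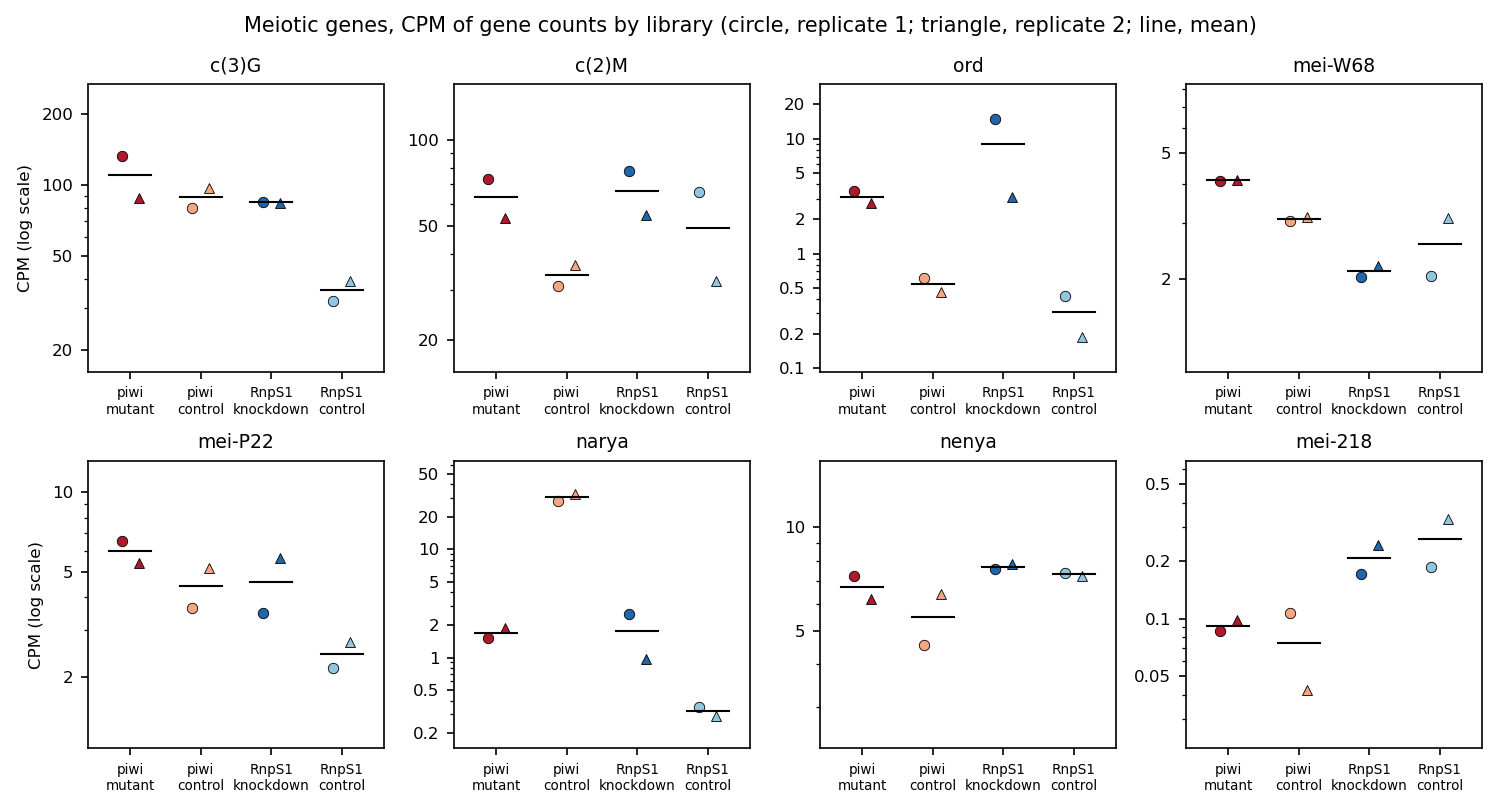
CPM of gene counts (log scale, y axis, with a separate range in each panel) of the 8 meiotic genes in each library, by group (x axis); circles are replicate 1, triangles replicate 2 and lines the group mean. narya stands at 28.2 and 32.9 CPM in the piwi control and below 2.6 CPM in the other 6 libraries, ord is above its control in both mutant and knockdown libraries, and c(3)G is lowest in the RnpS1 control.

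In the piwi mutant 1 of the 8 members passed, narya, which fell; of all genes tested 5.06% fell, 6.37% rose and 11.4% passed in either direction. Scaling by library totals alone moves these shares, with 814 genes up and 200 down against 665 and 528 with TMM. The other 7 members had positive log2 changes between 0.13 and 2.37 and did not pass. Both mutant libraries lay above both controls in CPM for c(2)M, mei-W68, mei-P22 and ord, a pattern that 45.6% of all genes showed, and below both for narya, as for 18.5% of all genes. The median log2 change was 0.21 over the members and 0.01 over all genes.

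In the RnpS1 knockdown no member passed in edgeR, where 1.62% of all genes did. At an unadjusted p under 0.05, 3 members (c(3)G, narya and ord) were higher. The share of all genes at that level was not counted. The same 3 passed in DESeq2, of 7 members it tested, where 1019 of 9863 genes passed. Both knockdown libraries lay above both controls for c(3)G, mei-P22, narya, nenya and ord, as they did for 34.2% of all genes. No member lay below both controls, against 11.4% of all genes. The median log2 change was 0.55 over the members and 0.01 over all genes. The difference between the changes, taken as the RnpS1 change minus the piwi change, passed for narya, where 0.288% of all genes were higher and 0.652% passed in either direction.

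**Figure D2:**
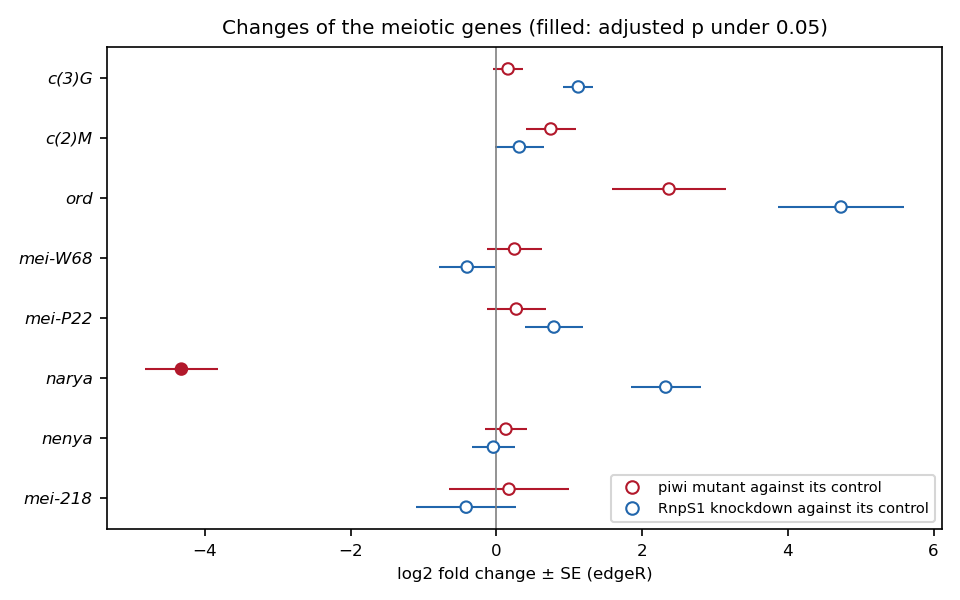
log2 change ± SE (x axis) of the 8 meiotic genes (y axis) from edgeR, in the piwi mutant (red) and in the RnpS1 knockdown (blue), each against its own control; filled points have an adjusted p under 0.05. narya at −4.32 in the piwi mutant is the one filled point, and the knockdown values of c(3)G (1.12) and ord (4.73) missed the threshold narrowly.

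c(3)G (FBgn0000246, chromosome 3R) encodes the transverse filament protein that bridges the lateral elements of the synaptonemal complex. It stood at 84.9 and 83.9 CPM in the RnpS1 knockdown libraries, against 32.2 and 39.3 CPM in their controls. The groups were well apart, and the ratio of summed counts scaled to CPM was 2.41 (exact 95% interval 2.33 to 2.50, counting error only). edgeR gave a log2 change of 1.12 (SE 0.206, adjusted p = 0.0517), just beyond the threshold. It passed in DESeq2 (1.56e-05), with library totals alone (0.0442) and without a filter on low counts (0.0322). These are 3 of the 7 other settings, and in the rest the adjusted p reached 0.116. With 1 library left out the log2 change stayed between 0.98 and 1.27.

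In the piwi mutant c(3)G stood at 133 and 87.9 CPM, against 79.9 and 97.2 CPM in its control, and the groups overlapped. The log2 change was 0.16 (SE 0.203, adjusted p = 0.615). The RnpS1 control was therefore the low group among the 4, and all 6 other libraries lay between 79.9 and 133 CPM. Between the controls, c(3)G was lower in that of RnpS1 than in that of piwi, by a log2 change of −1.33 (SE 0.207, adjusted p = 0.0242), where 2.15% of all genes were lower and 3.85% passed in either direction. That call was lost without piwi control replicate 1 (0.0873) or 2 (0.116) and without RnpS1 control replicate 1 (0.1198) or 2 (0.0736). A rise in the knockdown and a lowered level in the RnpS1 control cannot be told apart here. The change of c(3)G in the knockdown exceeded that in the mutant by 0.96 (SE 0.288), which did not pass in edgeR (adjusted p = 0.195) and passed in DESeq2 (0.0326). Uros2, a gene that overlaps c(3)G on the opposite strand, had 41 and 36 counts in the knockdown, against 6 and 3 in its control (log2 change 2.59, adjusted p = 0.104), far fewer than the 6441 and 7277 counts of c(3)G in the knockdown.

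c(2)M (FBgn0028525, 2L) encodes a lateral element protein related to the kleisin subunits of cohesin. It stood at 73.3 and 53.6 CPM in the piwi mutant, against 31.1 and 36.6 CPM in its control. Both mutant libraries were above both controls, with a log2 change of 0.75 (SE 0.343) that did not pass (adjusted p = 0.181). In a fit limited to these 2 groups it passed (0.0470), which was 1 of the 7 other settings. Knockdown libraries stood at 78.1 and 54.7 CPM, against 66.1 and 32.3 CPM in the RnpS1 control. These groups overlapped, since the control libraries differed from each other by more than the group means did (log2 change 0.32, SE 0.340, adjusted p = 0.687).

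ord (FBgn0003009, 2R) encodes a protein that holds sister chromatids together in meiosis of both sexes and is needed for a stable synaptonemal complex. It stood at 3.49 and 2.75 CPM in the piwi mutant, against 0.615 and 0.465 CPM in its control. Both mutant libraries were several times above both controls, with 163 and 140 counts against 23 and 22. The ratio of summed counts scaled to CPM was 5.84 (exact 95% interval 4.26 to 8.18), and the log2 change of 2.37 (SE 0.789) did not pass in edgeR (adjusted p = 0.0910). It passed in DESeq2 (0.0109) and in a fit limited to the 2 groups (0.0401). These are 2 of the 7 other settings, and in the rest the adjusted p reached 0.0931.

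In the RnpS1 knockdown ord stood at 14.9 and 3.14 CPM, against 0.426 and 0.186 CPM in its control. Knockdown replicate 1 was far above replicate 2, and both were above every control library of the series. The counts were 1131 and 272 in the knockdown against 32 and 9 in the control. The log2 change was 4.73 (SE 0.866) and did not pass (adjusted p = 0.0517). It was 3.23 without knockdown replicate 1 and 5.46 without knockdown replicate 2. It passed in DESeq2 (4.55e-08) and without a filter on low counts (0.0273). These are 2 of the 7 other settings, and in the rest the adjusted p reached 0.185. The changes of ord in knockdown and mutant differed by 2.36 (SE 1.08, adjusted p = 0.361), and its levels in the controls by −0.81 (SE 0.785, adjusted p = 0.602). The first of these was 0.87 without knockdown replicate 1. The second was −1.52 without RnpS1 control replicate 1 and −0.36 without replicate 2.

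The gene next to ord in the annotation, CG13540, lies on the opposite strand with a gap of 197 bases and does not overlap it. It is described here because its counts moved alongside those of ord, and so was chosen after its values were seen. CG13540 had 1338 and 205 counts in the RnpS1 knockdown, against 7 and 4 counts in its control, a log2 change of 6.66 that passed (adjusted p = 0.0476). As for ord, knockdown replicate 1 was the higher library, and without it the value was 4.61 (adjusted p = 0.115). It had 99 and 78 counts in the piwi mutant, against 6 and 2 in its control (log2 change 4.03, adjusted p = 0.0567). That value passed in DESeq2 (0.000673), without a filter on low counts (0.0447), under the replicate block (0.0448), when fitted with its own 2 groups (0.0376) and without knockdown replicate 1 (0.0327) or 2 (0.0261). It was 3.33 without piwi control replicate 2 and 5.23 without piwi control replicate 1. The call in the knockdown was also lost without RnpS1 control replicate 1 (0.194) or 2 (0.186), without either piwi mutant library (0.0998 and 0.0955) or either piwi control library (0.0686 and 0.0695), under the replicate block (0.0542) and in a fit limited to the 2 groups (0.156).

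Since ord also acts in male meiosis, the levels of 8 genes that mark spermatocytes are given beside it. They summed to 8.44 and 11.7 CPM in the piwi mutant, against 2.62 and 2.94 CPM in its control. They summed to 8.46 and 9.75 CPM in the RnpS1 knockdown, against 2.74 and 4.87 CPM in its control. In both comparisons the summed level was thus higher in mutant and knockdown than in their controls, and mia made up most of it. Of the 5 spermatocyte genes tested 3 rose in the piwi mutant (can, mia and tomb), where 6.37% of all genes rose. None of the 5 passed in the knockdown in edgeR, where 3 were higher at an unadjusted p under 0.05 and 2 passed in DESeq2. The 3 calls in the mutant were all lost without any 1 of its 4 libraries or without either knockdown library. aly, a regulator of spermatocyte transcription, had 83 and 20 counts in the knockdown against 1 and 1 in its control, and did not pass (adjusted p = 0.130). As for ord, knockdown replicate 1 was the higher library for aly. The other tested genes of the list did not share this: mia, tomb and topi were higher in knockdown replicate 2. can was alike in both, at 0.105 and 0.104 CPM. The log2 change of topi in the knockdown was negative (−0.63, adjusted p = 0.693). The part of such RNA in the level of ord was not tested.

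**Figure D3:**
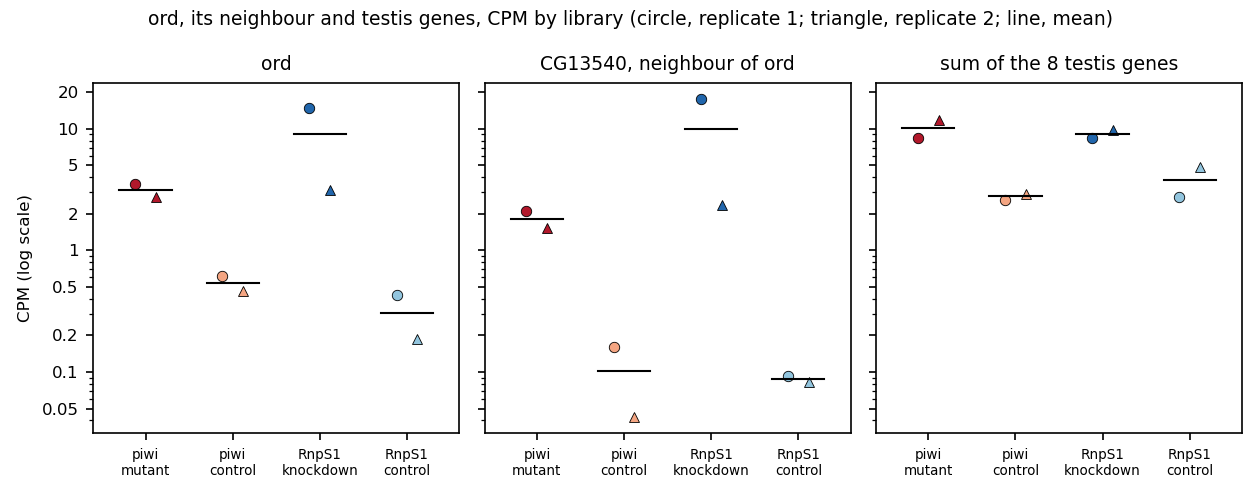
CPM (log scale, y axis, shared by the panels) of ord, of its neighbour CG13540 and of the sum of 8 testis genes by group (x axis); circles are replicate 1, triangles replicate 2 and lines the group mean. ord and CG13540 are highest in knockdown replicate 1 (14.9 and 17.6 CPM), and the summed testis genes are at 8.46 and 9.75 CPM in the 2 knockdown libraries.

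mei-W68 (FBgn0002716, 2R) encodes the Spo11 enzyme that cuts DNA in meiosis. It stood at 4.07 and 4.12 CPM in the piwi mutant, against 3.05 and 3.13 CPM in its control. The mutant libraries lay above the controls by a small step, which did not pass (log2 change 0.25, SE 0.383, adjusted p = 0.683). It stood at 2.03 and 2.19 CPM in the RnpS1 knockdown, against 2.04 and 3.12 CPM in its control, and these groups overlapped (log2 change −0.40, SE 0.383, adjusted p = 0.643). Of its 2300 exon bases 806, or 35.04%, overlap par-1 on the same strand, so its counts rest mainly on the other 1494.

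mei-P22 (FBgn0016036, 3L) encodes a partner of Mei-W68 that is needed for the breaks and marks their sites on the chromosome. It stood at 6.53 and 5.398 CPM in the piwi mutant, against 3.66 and 5.18 CPM in its control. It stood at 3.51 and 5.61 CPM in the RnpS1 knockdown, against 2.16 and 2.72 CPM in its control. In each comparison the lower mutant or knockdown library was above the higher control, and in neither did the gene pass (log2 change 0.27, adjusted p = 0.667, and 0.79, adjusted p = 0.354). As for c(3)G, the RnpS1 control held the lowest values of the 8 libraries, and the log2 change between the controls was −0.88 (SE 0.405, adjusted p = 0.265).

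narya (FBgn0031018, X) and nenya (FBgn0051053, 3R) encode closely related RING finger proteins of the Zip3 family that act redundantly, together with Vilya, in forming the breaks. narya was the one member that passed in the mutant or the knockdown. It stood at 1.52 and 1.89 CPM in the piwi mutant, against 28.2 and 32.9 CPM in its control. The groups were far apart, with 71 and 96 counts against 1057 and 1558, and the ratio of summed counts scaled to CPM was 0.0554 (exact 95% interval 0.0471 to 0.0648). The log2 change was −4.32 (SE 0.495, adjusted p = 0.0100). The size stayed between −4.49 and −4.16 with any 1 library left out, while the call was lost without piwi mutant replicate 1 (0.0697) or 2 (0.0577) or piwi control replicate 2 (0.0743).

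In the RnpS1 knockdown narya stood at 2.53 and 0.969 CPM, against 0.346 and 0.289 CPM in its control. All 4 of these libraries were far beneath the piwi control, and both knockdown libraries were above both controls. The log2 change was 2.32 (SE 0.479, adjusted p = 0.0697), which passed in DESeq2 (8.12e-05) and without a filter on low counts (0.0489). These are 2 of the 7 other settings, and in the rest the adjusted p reached 0.275. The log2 change was 1.49 without knockdown replicate 1 and 2.85 without knockdown replicate 2.

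The piwi control was thus the one group with a high level of narya. Between the controls, narya was lower in the RnpS1 control by a log2 change of −6.59 (SE 0.559, adjusted p = 0.00555), and this call held with each of the 8 libraries left out in turn, with adjusted p at most 0.0428. From these groups, a fall in the piwi mutant and a raised level in its control cannot be told apart. narya averaged 1.70 CPM in the mutant and 1.75 CPM in the knockdown. The changes of narya in knockdown and mutant differed by 6.65 (SE 0.684, adjusted p = 0.0154), a contrast that thus carries mostly the gap between the controls. That call was lost without any 1 library of the piwi mutant, the piwi control or the RnpS1 control (adjusted p 0.0508 to 0.0773). Its size was 5.82 without knockdown replicate 1 and 7.16 without knockdown replicate 2, where it passed. narya overlaps CG32533 on the opposite strand. CG32533 had log2 changes of 0.00 (adjusted p = 0.991) in the mutant and −0.01 (adjusted p = 0.987) in the knockdown. Between the controls it was at −0.51 (SE 0.181, adjusted p = 0.176), of the same sign as narya.

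nenya had the smallest log2 changes of the 8 members in both mutant and knockdown. It stood at 7.20 and 6.18 CPM in the piwi mutant, against 4.54 and 6.41 CPM in its control. It stood at 7.57 and 7.81 CPM in the RnpS1 knockdown, against 7.36 and 7.24 CPM in its control. Neither comparison passed, with log2 changes of 0.13 (SE 0.292, adjusted p = 0.788) and −0.04 (SE 0.291, adjusted p = 0.967). The knockdown libraries lay above their controls by a narrow margin in CPM, with a ratio of 1.05 (exact 95% interval 0.965 to 1.15). nenya has a single-exon gene model of 818 bases and narya one of 993 bases.

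mei-218 (FBgn0002709, X) belongs to the group of MCM-related proteins, with Mei-217 and Rec, that lets breaks become crossovers. It had 4 and 5 counts in the piwi mutant, against 4 and 2 in its control. It had 13 and 21 counts in the RnpS1 knockdown, against 14 and 16 in its control. At this depth no difference was detectable in either comparison: the ratios of summed counts scaled to CPM were 1.30 (exact 95% interval 0.414 to 4.44) and 0.862 (0.512 to 1.46). Both RnpS1 control libraries were above both piwi controls (ratio 3.43, interval 1.40 to 10.1), which did not pass (log2 change 1.76, SE 0.779, adjusted p = 0.248).

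The low counts of mei-218 are to be read with its gene model. Of its 6310 exon bases 5005, or 79.3%, overlap mei-217 on the same strand, since both proteins are known to be made from a common transcript. mei-217 had 0 counts in all 8 libraries. The tables hold a separate line for reads of ambiguous assignment, 1.19% to 1.63% of counted, ambiguous and unassigned reads together, and no gene of that line is named.

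Between the controls as a whole, the RnpS1 control lay above the piwi control in both libraries for mei-218 and nenya, a pattern of 25.5% of all genes. It lay below for c(3)G, mei-P22, narya and ord, a pattern of 22.7% of all genes. Of the 8 members 2 passed, narya and c(3)G, both lower in the RnpS1 control, where 2.15% of all genes were lower and 3.85% passed in either direction.

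The other genes of the pathway were read from lists made by function. Of 14 further genes of the synaptonemal complex and of cohesion, 12 had a row and were tested. None passed in edgeR in either comparison, where 11.4% of all genes passed in the mutant and 1.62% in the knockdown. In mutant ovaries 5 had an unadjusted p under 0.05, of which 4 were lower and 1 higher, and DESeq2 called 3 lower and 1 higher. In the knockdown there were none by either count. The median log2 change was −0.27 in the mutant and −0.16 in the knockdown. The cohesin subunit SMC3 was at −0.52 (SE 0.136, adjusted p = 0.0536) in the mutant. The positive one was cona, which encodes the central region protein Corona that works with C(3)G. It stood at 1.74 and 2.90 CPM in the mutant, against 0.855 and 0.507 CPM in its control (log2 change 1.61, SE 0.540, adjusted p = 0.0923).

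Of 22 further genes of meiotic breaks, repair and crossover, 20 were tested, and mei-217 and mus312 had 0 counts in every library. A 0 here does not show that a gene was silent, since the tables do not tell which genes the ambiguous reads came from. In the piwi mutant 3 fell, where 5.06% of all genes did, and none rose. In the RnpS1 knockdown 2 fell, where 0.738% of all genes did, and none rose. With TMM scaling 18 of the 20 had a negative log2 change in the mutant (median −0.26) and 19 in the knockdown (median −0.24). Of all genes tested, 49.2% were negative in the mutant and 48.8% in the knockdown. With library totals alone, which shift the median of all genes to 0.17 in the mutant and 0.12 in the knockdown, 14 and 15 of the 20 were negative and 2 passed in each comparison.

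rec, which encodes the MCM-related partner of Mei-218, passed in both comparisons. It stood at 25.3 and 24.7 CPM in the piwi mutant, against 46.9 and 51.1 CPM in its control (log2 change −1.13, SE 0.122, adjusted p = 0.00813). It stood at 18.9 and 17.0 CPM in the RnpS1 knockdown, against 32.6 and 31.0 CPM in its control (log2 change −0.94, SE 0.122, adjusted p = 0.0207). Replicates were close and the groups did not overlap in either comparison. Between the controls, rec was lower in that of RnpS1 (log2 change −0.65, adjusted p = 0.0379), a call that held in 1 of 8 fits with a library left out and was lost under the replicate block (0.0755), with the 2 controls fitted alone (0.0806) and without a filter on low counts (0.0551). The call in the mutant was lost without piwi mutant replicate 1 (0.0656) or 2 (0.0626) or piwi control replicate 2 (0.0773). The call in the knockdown was lost without any 1 of its 4 libraries or of the 2 piwi mutant libraries (0.0520 to 0.105), under the replicate block (0.0539) and in a fit limited to the 2 groups (0.176).

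mus301, a helicase of the repair of meiotic breaks, stood at 64.5 and 59.9 CPM in the piwi mutant, against 95.1 and 122 CPM in its control (log2 change −0.96, SE 0.152, adjusted p = 0.0174). In the knockdown its log2 change was −0.73 and did not pass (adjusted p = 0.0721). Blm, the helicase that limits crossovers outside the usual pathway, stood at 140 and 126 CPM in the mutant, against 164 and 183 CPM in its control (log2 change −0.55, SE 0.132, adjusted p = 0.0430). tefu, the kinase ATM that responds to breaks and limits their number, stood at 97.3 and 90.6 CPM in the RnpS1 knockdown, against 180 and 152 CPM in its control (log2 change −0.94, SE 0.114, adjusted p = 0.0188). tefu in the piwi mutant was at −0.08 (adjusted p = 0.654).

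These calls were also lost in some fits with 1 library left out, which leave 1 library in a group. A call lost in such a fit can reflect the smaller group. The log2 change stayed between −1.11 and −0.77 for mus301, −0.60 and −0.47 for Blm, and −1.06 and −0.82 for tefu. mus301 lost its call without piwi mutant replicate 1 (0.0781) or 2 (0.108) or piwi control replicate 2 (0.0959). Blm lost it without any 1 of the 4 libraries of the comparison (0.0989 to 0.230) or of the 2 RnpS1 control libraries (0.0653 and 0.0661), under the replicate block (0.0690) and with library totals alone (0.0980). tefu lost it without knockdown replicate 1 (0.0818) or 2 (0.0518), in a fit limited to the 2 groups (0.117) and without RnpS1 control replicate 1 (0.0890).

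**Figure D4:**
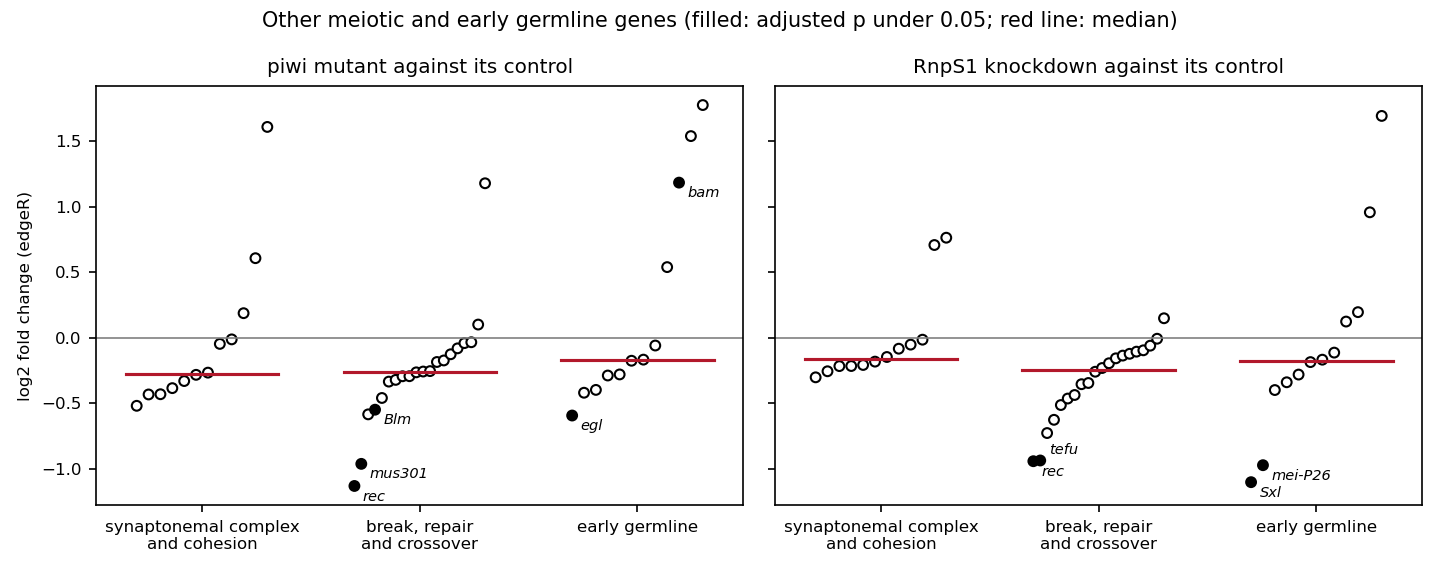
log2 change from edgeR (y axis) of the tested genes of 3 lists (x axis; 12, 20 and 12 genes), in the piwi mutant (left) and the RnpS1 knockdown (right) against their own controls; each point is a gene, filled points have an adjusted p under 0.05 and red lines are list medians. Named genes passed: rec, mus301 and Blm were lower in the mutant, rec and tefu in the knockdown, and bam is the one named gene above 0.

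Meiosis starts in cysts that leave the stem cell programme, so 12 genes of early germline differentiation were read as well. In the piwi mutant bam, the factor that turns a stem cell daughter to cyst divisions, rose, at 159 and 152 CPM against 48.5 and 74.0 CPM in its control (log2 change 1.19, SE 0.286, adjusted p = 0.0436). egl, which encodes an adaptor for RNA transport into the oocyte, fell, at 213 and 214 CPM against 281 and 296 CPM (log2 change −0.59, SE 0.1197, adjusted p = 0.0303). The other 10 did not pass in the mutant, where 11.4% of all genes passed in either direction. Of the 12, 8 had an unadjusted p under 0.05 there, 4 higher and 4 lower. Those higher included bgcn (log2 change 1.54, adjusted p = 0.0772) and tut (log2 change 1.78, adjusted p = 0.0880), both with larger changes than bam. In the RnpS1 knockdown 2 of the 12 fell, where 0.738% of all genes did. At an unadjusted p under 0.05 there were 3 lower and 1 higher, tut (log2 change 1.69, adjusted p = 0.198). mei-P26, a regulator of cyst growth with a meiotic phenotype in mutants, stood at 360 and 400 CPM, against 657 and 719 CPM in its control (log2 change −0.97, SE 0.106, adjusted p = 0.0152). Sxl, the RNA-binding protein of sex identity in the germline, stood at 237 and 198 CPM, against 512 and 347 CPM (log2 change −1.10, SE 0.182, adjusted p = 0.0434).

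All 4 calls on early germline genes were also lost in some fits with a library left out. The log2 change then ran from 0.93 to 1.52 for bam and from −0.61 to −0.56 for egl. It ran from −1.06 to −0.89 for mei-P26 and from −1.36 to −0.81 for Sxl. bam lost its call without any 1 of the 4 libraries of the comparison (0.121 to 0.162) or of the 2 RnpS1 control libraries (0.0536 and 0.0551) and under the replicate block (0.0705). egl lost it without any 1 of the 4 libraries (0.0861 to 0.155), under the replicate block (0.0538) and with library totals alone (0.0603). mei-P26 lost it without knockdown replicate 1 (0.0581), without RnpS1 control replicate 1 (0.0866) or 2 (0.0680) and in a fit limited to the 2 groups (0.117). Sxl kept it among left-out libraries only without RnpS1 control replicate 2; with the others left out its adjusted p was 0.0688 to 0.125, and it was 0.0593 under the replicate block, 0.0570 with library totals alone and 0.177 in a fit limited to the 2 groups.

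The members differed in how alike their patterns over the 8 libraries were. Likeness was measured as the root mean square difference of log2 CPM, here with TMM scaling and a prior count of 2. Each gene was first centred on its mean, so that 0 means the same pattern. The prior count damps patterns at low counts, so distances of mei-218 do not compare directly with those of well-counted members. The closest pair of members was c(3)G and mei-P22, at 0.266. c(2)M and nenya were each other's nearest, at 0.397, and the nearest members of mei-W68 (mei-P22, 0.446) and mei-218 (nenya, 0.612) were farther. narya and ord stood apart from all, with 2.06 to c(3)G and 1.57 to c(2)M as their smallest distances. Among all genes tested, c(3)G was most like CG4842 (0.177), CG3323 (0.202) and CG11409 (0.208), and mei-W68 most like app (0.139), Dredd (0.158) and CG17726 (0.165). CG4842, for example, had 21.6 and 25.99 CPM in the RnpS1 knockdown, against 10.01 and 11.2 CPM in its control, a gap like that of c(3)G. mei-218 was most like Dhit (0.206), CG12395 (0.253) and GstD4 (0.265), of which CG12395 was also rarely counted. With 8 libraries in 4 groups these distances describe the libraries at hand and share their depth and scaling.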

How the data were processed

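Ovarian RNA was sequenced in 8 libraries, from total RNA depleted of ribosomal RNA and prepared with a strand-specific protocol, per the labels' protocols. The authors deposited raw read counts per gene and per transposon family, 1 table of each kind per library. The submitters' processing notes name the builds dm3 and BDGP5 and the tools TopHat2 2.0.9, HTSeq 0.5.3p9, DESeq, and CASAVA in versions 1.8 and 1.8.2. Gene tables were summed over genes only. Reads outside any gene were 1.91% to 10.7% and ambiguous reads 1.19% to 1.63% of gene counts plus these. Alignments that were not unique were 43.2% to 66.0% when added to the sum, so gene copies are undercounted. A read may give more than 1 such alignment, so this is not a share of reads. Symbols were matched for 15002 of 15682 identifiers in BDGP6, a later release than the authors', which also gave chromosomes, exon lengths and overlaps. No coordinates or sequences are given.

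edgeR 4.0.16 (R 4.3.3) was run on the deposited counts with filterByExpr, TMM scaling and quasi-likelihood F tests, in 1 model of the 8 libraries with group as its single term, and adjusted over 10434 genes. Residual degrees of freedom were 4, prior degrees of freedom 3.02 and the common dispersion 0.104. Standard errors follow from the F statistic. CPM are counts scaled to the sum of gene counts without TMM, while fold changes and the distances between patterns use TMM. Directions are relative to that scaling. Of the calls, 55.7% were higher in the piwi mutant and 54.4% in the RnpS1 knockdown, against 80.3% and 72.9% with library totals alone. An exact two-sided permutation test of 2 libraries against 2 cannot go below 0.333 and was not used. Intervals of ratios are exact binomial at 95% and cover counting error only.

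Contrasts were mutant against control, knockdown against control, the difference of these changes, and control against control, RnpS1 over piwi. Alternatives were DESeq2 1.42.0, its size factors in edgeR, library totals alone, no filter, the 2 groups alone, the replicate number as a block and each library left out. Transposon families in the same fit were added after the data were seen. Named genes were all members, list genes that passed (at most 4 per list and comparison), the 3 most alike genes for c(3)G, mei-W68 and mei-218, and piwi and RnpS1. SMC3, cona, bgcn, tut and the testis markers aly, can, mia, tomb and topi fall outside that rule and were chosen after their values were seen. So were the genes without counts (mei-217 and mus312) and the neighbours Uros2, CG13540 and CG32533. The members and lists were chosen with earlier results of these data known. The script was tested on simulated data.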

Additional observations from a re-analysis of the deposited data

Results flagged for a closer look

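The change of narya differed between the comparisons. Its change in the RnpS1 knockdown minus its change in the piwi mutant was 6.65 on the log2 scale (SE 0.684, adjusted p = 0.0154 in edgeR), which is a test of the difference itself. narya was above its control in 2 of 2 knockdown libraries and below its control in 2 of 2 mutant libraries, and the piwi control was the one group with a high level. Its mean was 1.70 CPM in the mutant and 1.75 CPM in the knockdown. The contrast thus carries mostly the gap between the 2 control genotypes (log2 change −6.59). Outliers within a group were not looked for, since each group has 2 libraries.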

How the results depend on the processing

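No call of a member or named list gene turned its direction under the alternatives run. Counts of members that passed were 1 in the piwi mutant, 0 in the RnpS1 knockdown, 1 for the difference of the changes and 2 between the controls. With DESeq2 they were 2, 3 and 2 in the first 3, with 2 groups alone 3 in the mutant, and in the knockdown 1 with library totals alone and 3 without a filter. With 1 library left out they ranged from 0 to 2, 0 to 2, 0 to 1 and 1 to 2.

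Over all genes, 1193 passed in the mutant, 169 in the knockdown, 68 for the difference and 402 between the controls. With DESeq2 the counts were 2470, 1019, 799 and 1436. Without a filter 254 passed in the knockdown and 120 for the difference, and with 2 groups alone 5 in the knockdown and 135 between the controls. With 1 library left out the ranges were 27 to 1138, 0 to 139, 12 to 41 and 44 to 355, lowest without piwi control replicate 2, RnpS1 control replicate 1, piwi mutant replicate 1 and piwi control replicate 1. With transposon families in the fit, chosen after seeing the data, they were 1147, 161, 67 and 371. The causes were not tested.

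With the replicate block 659, 64, 47 and 211 genes passed, and the members' counts stayed at 1, 0, 1 and 2. The labels name no batch, and whether same-numbered libraries belong together was not settled. Their deviations from group means correlated at −0.217 to 0.207 across genes over the 6 pairs of groups. The highest value was between the RnpS1 knockdown and its control, and the lowest between the controls. The block fit took 1 of the 4 residual degrees of freedom. Among the members depth limits mei-218 most, at 2 to 21 counts per library.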
